A study of Arabidopsis thaliana with 48 samples.

Results

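Continuous far-red light for 4 h was set against 4 h of further darkness in dark-grown Arabidopsis thaliana seedlings. The comparison takes the 3 arrays labelled far-red 4 h and the 3 labelled dark 4 h, which are 6 of the 48 ATH1 arrays of the study, and every probe set on them apart from the controls. All seedlings were of the accession Col-0 and carried no mutation or transgene according to the labels. Seeds were kept cold at 8 °C for 48 h, received 2 h of light to induce germination, and then grew for 94 h in darkness at 22 °C on agar medium. The far-red group then received continuous light of 715 nm (half-bandwidth 15 nm) at 10 µmol per m2 and s for 4 h, and the dark group stayed in darkness for the same time. Where the text turns to other light, the groups of 3 arrays given continuous red light of 650 nm or blue light of 453 nm at the same fluence rate for 4 h are used, and the far-red and dark groups harvested at 45 min.

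The tissue is labelled as mainly hypocotyl and cotyledons. The germination light is given as red for 5 of the 6 arrays and as green for dark 4 h replicate 1. Whether the arrays within a group stem from independently grown batches of seedlings is not stated, and the p-values therefore refer only to variation among arrays, possibly technical in origin.

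Far-red light of long duration is seen almost only by phytochrome A, the light-labile member of the phytochrome family that accumulates in darkness. Phytochrome A is carried into the nucleus by FHY1 and its relative FHL, where it curbs the growth-promoting PIF transcription factors and the COP1 ubiquitin ligase, and HY5-type bZIP factors accumulate. The hypocotyl then slows its growth, the cotyledons open, flavonoid pigments are made and genes for plastid proteins are switched on, while chlorophyll itself is hardly formed, since its light-dependent step needs shorter wavelengths.

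A probe set was called where the adjusted p of the limma fit over all 48 arrays was under 0.05, and differences are given on the scale of log2(signal + 1). Of 15777 probe sets tested, 4584 were called (29.1%), 2150 higher in far-red (13.6%) and 2434 lower (15.4%). The rises reached further than the falls. Differences of at least 4-fold were called for 282 probe sets that were higher and for 119 that were lower, and of at least 8-fold for 103 and 27. These sizes depend on signals near the floor. With 16 in place of 1 added to the signal, the counts were 174 and 52 at 4-fold and 44 and 5 at 8-fold. The median difference was 0.88 among the probe sets called higher and -0.59 among those called lower, beside -0.033 over all tested. Of the 4584, 4469 had no overlap between the 3 far-red and the 3 dark arrays, against 45.1% of all tested probe sets.

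**Figure D1:**
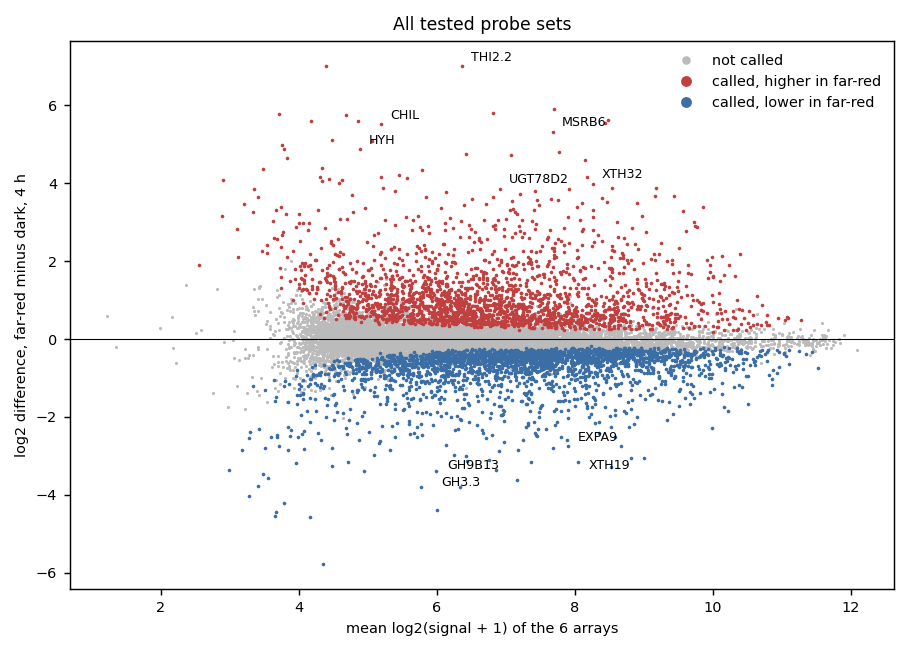
Log2 difference, far-red minus dark at 4 h (vertical axis), against the mean log2(signal + 1) of the 6 arrays (horizontal axis), with 1 point for each of the 15777 tested probe sets. Called probe sets are red where higher in far-red (2150) and blue where lower (2434), and THI2.2 lies at 6.999 while XTH19 and GH3.3 lie at -3.156 and -3.362.

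The arrays of the same group correlated at 0.9749 to 0.9804 across probe sets, and arrays of different groups at 0.8834 to 0.898. Of the markers of cell types, those of cotyledon mesophyll that are named on the array (RCA and LHCB4.1) rose and are described with photosynthesis. Neither root marker was called: PYK10, the root beta-glucosidase, had a mean of 3255 in far-red and 3318 in dark (adjusted p = 0.892), and EXPA18, a root hair expansin, had 36.2, 14.9 and 29.8 in far-red, against 27.9, 31.4 and 35.2 in dark (adjusted p = 0.686). The guard cell factor FAMA (FMA) had 22, 19.3 and 21 in far-red, against 14.3, 22.9 and 17.5 in dark (adjusted p = 0.663). Markers of vascular tissue and epidermis and seed storage proteins are not analysed here because none has a named probe set. Fewer cells of a type and less RNA per cell cannot be told apart in RNA of mixed cell types.

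Within the phytochrome A pathway itself, the 2 genes with a named probe set of 19 on the list were called in opposite directions. AFR, an F-box protein that promotes phytochrome A signalling, had signals of 265.5, 312.6 and 305.5 in far-red, against 34.7, 37.9 and 31.3 in dark. Each far-red array stood well above each dark array, a difference of 3.05 ± 0.17 (SE, adjusted p = 4.84e-18), or 8.30-fold. FHL, which helps phytochrome A into the nucleus, had 38.5, 33.2 and 40 in far-red, against 108.9, 85.9 and 91.9 in dark. It was lower in all 3 far-red arrays, by -1.33 ± 0.15 (adjusted p = 2.17e-09).

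The transcription factor HYH, a close relative of HY5, was near the floor in darkness and clearly present in far-red. Its signals were 146.4, 154.8 and 175.1 in far-red, against 9.8, 5.9 and 1.2 in dark, which gives 4.86 ± 0.38 (adjusted p = 2.01e-13). HAT2, a homeodomain-leucine zipper factor induced by auxin and by shade, went the other way, with 97.2, 115.1 and 94.9 in far-red, against 415.3, 438.4 and 487.6 in dark. The difference was -2.12 ± 0.14 (adjusted p = 2.9e-15), without overlap of the groups.

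Other transcription factors also moved, and those named here outside the lists were chosen after their values were seen. The AP2-type factors tny and TINY2 rose by 2.66 ± 0.16 and 1.85 ± 0.40. SMZ (SCHLAFMUTZE), an AP2-type repressor of flowering, averaged 419.6 ± 18.7 in far-red and 80.3 ± 7.53 in dark (SD, n = 3 each), and rose by 2.38. TCP15 fell by 1.04 ± 0.13. Of 13 bZIP factors outside HYH that were tested, 6 fell and 1 rose, against 15.4% and 13.6% of all probe sets. The largest of these falls were those of BZIP34 and BZIP61. BZIP61 had 40.2, 42.8 and 47.5 in far-red, against 207.2, 242.8 and 251.9 in dark, all far-red arrays being lower.

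The named clock genes were split. GI (GIGANTEA), which acts in the clock and in flowering, had 453.8, 393 and 449.5 in far-red, against 153.2, 143.4 and 152.2 in dark, and rose by 1.52 ± 0.17 (adjusted p = 1.13e-09). COR27, a cold-regulated gene linked to the clock, had 5.4, 17.2 and 17.3 in far-red, against 46, 61 and 55.3 in dark. It fell by 2.09 ± 0.34 (adjusted p = 4.21e-06), with far-red replicate 1 lowest, and AT4G33980 fell by 1.65 ± 0.21. A pair of loci on the list of other photoreceptors and their inhibitors, AT3G52740 and AT3G44450, rose by 4.87 ± 0.63 and 3.35 ± 0.26. Several of these genes lie near the floor in 1 group, so that their difference depends on the pseudocount. With 16 in place of 1, HYH differed by 3.03, COR27 by -1.28, AT4G33980 by -0.995, AT3G52740 by 2.35, AT3G44450 by 2.19, TINY2 by 1.14 and BZIP34 by -1.06 against -2.85, and all of them were still called.

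**Figure D2:**
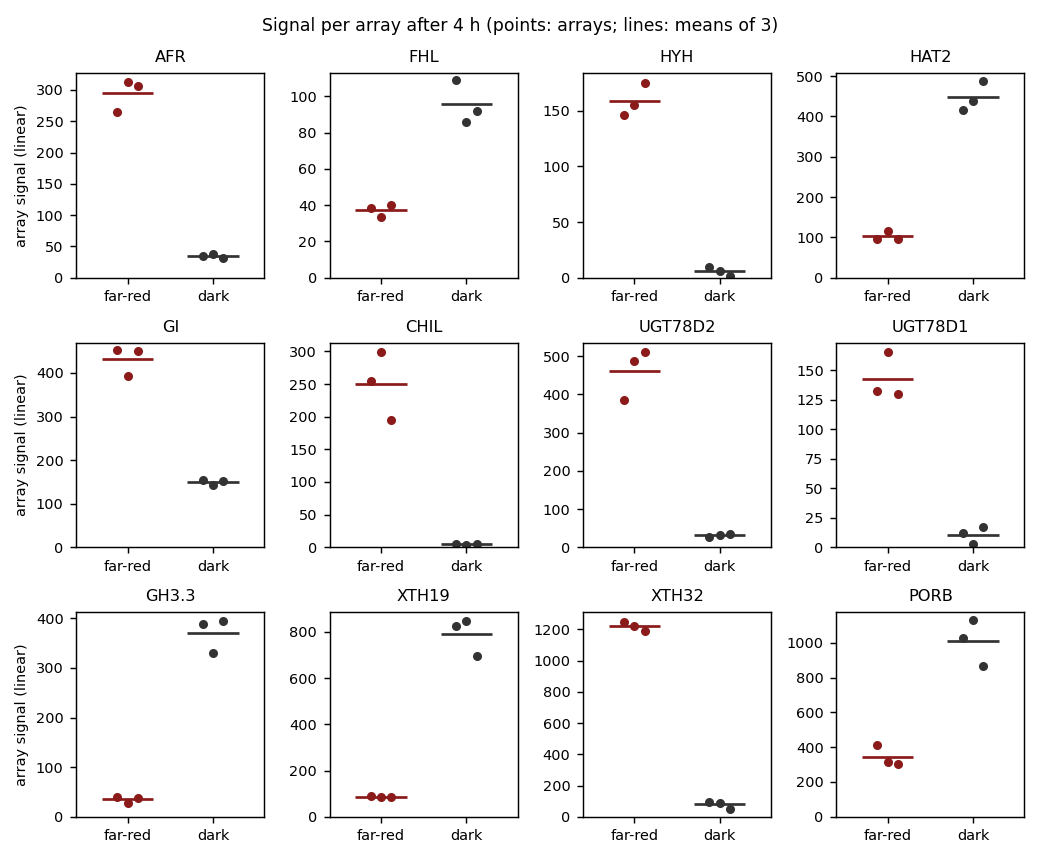
Array signal on a linear scale (vertical axes) of 12 genes in the far-red 4 h and the dark 4 h group, with a point for each array and a line at the mean of 3. In none of the 12 panels do the groups overlap, which also held for 45.1% of all tested probe sets. AFR, HYH, GI, CHIL, UGT78D2, UGT78D1 and XTH32 are higher in far-red and FHL, HAT2, GH3.3, XTH19 and PORB are lower.

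All 5 tested genes of the 25 on the flavonoid list rose, beside 13.6% of all probe sets, with a median difference of 3.85 against -0.03 over all. CHIL, a chalcone isomerase-like protein that aids the entry step of the pathway, had 255.3, 298.5 and 195.6 in far-red, against 4.2, 4.1 and 5.1 in dark. The dark signals are at the floor and all far-red arrays are far above them, so that the difference of 5.50 ± 0.44 (adjusted p = 4.11e-13) has an uncertain size and was 3.68 with a pseudocount of 16. UGT78D2, which puts glucose on the 3-position of flavonols and anthocyanidins, was measured well in both groups, at 385.7, 487.2 and 511.2 in far-red, against 27, 32.1 and 33.6 in dark. It rose by 3.85 ± 0.15 (adjusted p = 2.86e-22), or 14.4-fold.

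UGT78D1, the flavonol 3-O-rhamnosyltransferase, had 132.5, 165 and 129.8 in far-red, against 12.3, 2.8 and 17.1 in dark, and rose by 3.88 ± 0.51 (adjusted p = 6.83e-08). DFR, dihydroflavonol reductase of the anthocyanin branch, changed least, with 50, 46 and 43.6 in far-red, against 20, 30.4 and 34.6 in dark. Its rise of 0.73 ± 0.21 (adjusted p = 0.00636) was 0.51 (adjusted p = 0.0945) without dark replicate 1, the array with the lowest DFR signal. UGT84A1, which glucosylates hydroxycinnamic acids, had 3.7, 21.3 and 12.9 in far-red, against 1.9, 1.8 and 2.5 in dark. These signals are near the floor, and its difference of 1.89 ± 0.62 (adjusted p = 0.0178) was 0.62 with a pseudocount of 16 and was no longer called in a fit on the 6 arrays alone (adjusted p = 0.0927) or without far-red replicate 2 (adjusted p = 0.147) or 3 (adjusted p = 0.0682). UF3GT, an anthocyanin glycosyltransferase named after its values were seen, averaged 78.9 ± 20.3 in far-red and 23.3 ± 8.83 in dark (SD, n = 3 each).

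In the family of UDP-glycosyltransferases as a whole, 11 of 32 tested members rose and 2 fell, against 13.6% and 15.4% of all probe sets. Beside the flavonoid enzymes, UGT74D1, which glucosylates auxins in vitro, had 340.7, 411 and 328.7 in far-red, against 63.4, 78.1 and 82.9 in dark. It rose by 2.25 ± 0.17, and UGT88A1 and UGT71B1 rose by 1.71 ± 0.27 and 1.95 ± 0.32 (1.29 for UGT71B1 with a pseudocount of 16). UGT85A2 and UGT72E2 fell by 0.80 ± 0.16 and 0.73 ± 0.18. Among glutathione transferases 4 of 10 rose and none fell, with GSTU18 and GSTU16 at 0.92 ± 0.18 and 0.89 ± 0.17. In the CYP family 3 of 14 rose and none fell, and CYP84A4 differed most, at 157.8, 171.2 and 199.9 in far-red, against 51.5, 58.1 and 64.9 in dark. The beta-glucosidases were mixed, with 4 of 10 higher and 2 lower.

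The named nuclear genes of the photosystems and electron transport rose. All 5 tested members of the photosystem and electron transport list were higher, beside 13.6% of all probe sets. The differences ran from 1.29 for ATPC1, the gamma subunit of the plastid ATP synthase, to 2.45 for PSAE-1. PSAE-1, a stromal subunit of photosystem I, had 858.9, 1136.7 and 1055.5 in far-red, against 178, 228 and 155.1 in dark (2.45 ± 0.36, adjusted p = 9.76e-07). PSAN, also of photosystem I, rose by 2.15 ± 0.23. PSBY and PSBW, small subunits of photosystem II, rose by 1.96 ± 0.30 and 1.49 ± 0.21. The groups did not overlap for any of the 5, nor did they for 45.1% of all tested probe sets.

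The antenna followed with smaller differences. LHCB4.1, LHCB4.2 and LHCB4.3 encode CP29, an inner antenna protein of photosystem II, and rose by 1.33 ± 0.30, 1.41 ± 0.26 and 0.86 ± 0.13. In the Calvin cycle RCA, the activase of Rubisco, had 2011.6, 2159.3 and 2126.8 in far-red, against 469.2, 515 and 490.1 in dark, a rise of 2.09 ± 0.24 (adjusted p = 3.38e-09). SBPASE rose by 1.81 ± 0.36. PRK had a mean of 734.4 in far-red and 425.8 in dark but missed the threshold (0.79 ± 0.43, adjusted p = 0.174), although its groups did not overlap, and it was called in the fit on the 6 arrays alone (adjusted p = 0.000111).

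The following genes were chosen after their values were seen. CaS, a thylakoid calcium sensor, averaged 235.2 ± 15.3 in far-red and 39.5 ± 3.53 in dark (SD, n = 3 each). FUG1, a plastid translation initiation factor, rose by 2.08 ± 0.35 and the chaperonin Cpn60beta2 by 2.11 ± 0.32. The peroxisomal hydroxypyruvate reductase HPR of photorespiration rose by 2.40 ± 0.33. For the families counted next, the shares over all probe sets were 13.6% higher and 15.4% lower. Of 8 thioredoxin-type proteins TRXF2, NTRC, THX and ty2 rose, by 0.66 to 1.43, and none fell. Of 5 nuclear genes of the plastid NDH complex and its assembly, CRR42, CRR41, NdhN and NdhS rose, by 1.05 to 3.21, and NdhL did not pass (0.44, adjusted p = 0.372). CRR42 was near the floor in dark (7.5, 3.2 and 3.1), and with a pseudocount of 16 its difference was 1.64 and that of CRR41 0.88.

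The genes of the plastid's own chromosome gave another picture. Of 65 tested plastid-encoded genes, against 29.1% of all probe sets called, only psbD, which encodes the D2 protein of photosystem II, was called, and the median difference of the 65 was 0.01. psbD had 267.4, 244.1 and 241.8 in far-red, against 142.4, 128.7 and 168.5 in dark, a rise of 0.78 ± 0.23 (adjusted p = 0.00805). psbC, the neighbouring gene, which encodes CP43, had a similar difference with a larger error (0.78 ± 0.46, adjusted p = 0.225), and rbcL, the large subunit of Rubisco, was at 0.46 ± 0.29 (adjusted p = 0.266). A fit on the 6 arrays alone called psbC and rbcL as well (adjusted p = 0.00211 and 0.0102).

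Of 8 tested genes of chlorophyll synthesis 3 rose, 1 fell and 4 did not pass, against 13.6% higher and 15.4% lower of all probe sets. HEME1 and HEME2, the uroporphyrinogen decarboxylases, rose by 1.03 ± 0.25 and 0.89 ± 0.22, and CHLM, which methylates magnesium protoporphyrin, by 0.82 ± 0.25. The early enzymes GSA1 and HEMB1 differed by 0.18 ± 0.11 and 0.26 ± 0.13 (adjusted p = 0.258 and 0.151). The gene that fell was PORB, which carries out the light-dependent step. PORB had 412.9, 317.8 and 304.8 in far-red, against 1027.8, 1134.7 and 870.1 in dark, so that each far-red array was lower (-1.55 ± 0.31, adjusted p = 0.000103). CHLI2, of the magnesium chelatase, lay at the threshold (1.03 ± 0.40, adjusted p = 0.0513) and was called in the fit on the 6 arrays alone (adjusted p = 0.000101), as was AT1G74470, geranylgeranyl reductase (0.64 ± 0.29, adjusted p = 0.1 and 0.000636).

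**Figure D3:**
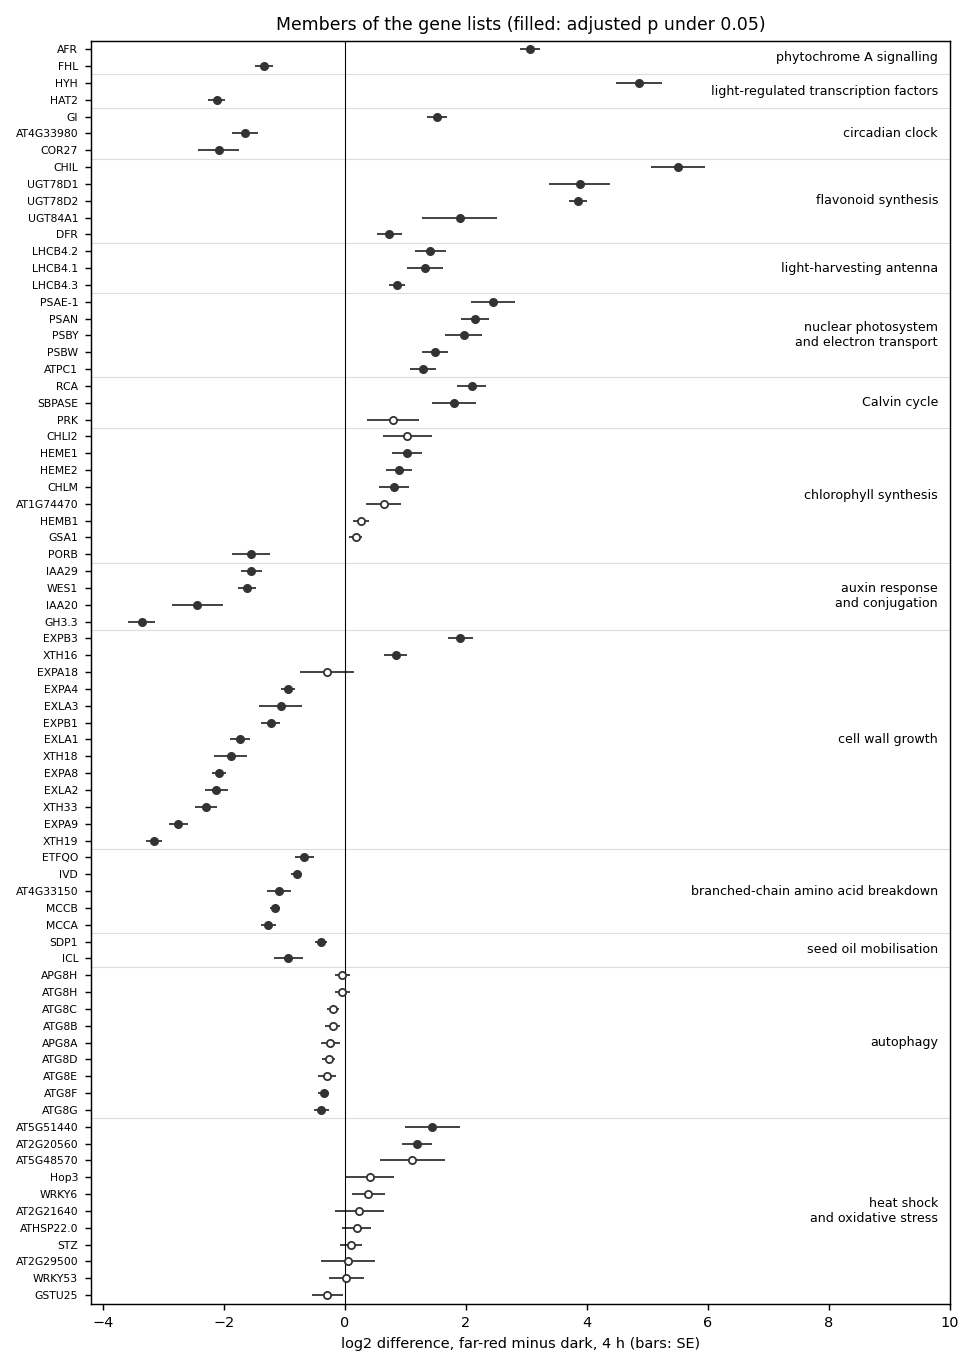
Log2 difference, far-red minus dark at 4 h (horizontal axis), of the tested members of 14 gene lists, with bars for the SE of the fit and filled points for an adjusted p under 0.05. All 5 flavonoid genes and all 5 of the photosystem and electron transport list lie above 0. All 4 auxin genes and all 5 of branched-chain amino acid breakdown lie below 0.

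All 4 tested genes of auxin response and conjugation fell, beside 15.4% of all probe sets. GH3.3, which joins auxin to amino acids and is itself induced by auxin, had 40, 28.7 and 37.5 in far-red, against 389.3, 329.3 and 393.9 in dark. The far-red arrays were all about an order of magnitude lower (-3.36 ± 0.23, adjusted p = 5.57e-15). WES1, an enzyme of the same family, fell by 1.62 ± 0.14, and the auxin response repressor IAA29 by 1.54 ± 0.18. IAA20, a repressor of the same type, had 5.9, 3.6 and 10.4 in far-red, against 40.5, 39.3 and 33.7 in dark (-2.44 ± 0.42, and -1.26 with a pseudocount of 16). The families were not moved whole: IAA18, IAA34 and GH3.17 were at -0.19, 0.13 and 0.37 and did not pass. WAG2, a protein kinase that acts on auxin transport and was named after its values were seen, fell by 1.84 ± 0.21.

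On the list of cell wall growth, 10 of 13 tested members were lower, 2 higher and 1 not called. Of all probe sets 15.4% were lower and 13.6% higher. In the expansin (EXP) family as a whole, 4 of 11 tested members fell, 2 rose and 5 were not called. XTH19, a xyloglucan endotransglucosylase, had 92, 87.2 and 83.6 in far-red, against 827.3, 847.1 and 698.2 in dark (-3.16 ± 0.14, adjusted p = 1.15e-20). The alpha-expansins EXPA9 and EXPA8 fell by 2.75 ± 0.16 and 2.08 ± 0.12. EXPA8 had 336.2, 332.6 and 270.6 in far-red, against 1251, 1366.6 and 1357.1 in dark, with no overlap. XTH33, XTH18, EXLA2, EXLA1, EXPB1, EXLA3 and EXPA4 fell, by 0.94 for EXPA4 to 2.3 for XTH33, and EXLA3, near the floor, by 0.48 with a pseudocount of 16.

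EXPB3 and XTH16 on the list rose instead, as did XTH32 outside it. XTH32 had 1249.3, 1223.2 and 1187.8 in far-red, against 97.1, 87.9 and 51.7 in dark, a rise of 3.98 ± 0.25 (adjusted p = 2.68e-16). In the XTH family thus 4 of 6 tested members fell, among them XTH20 by 0.52 ± 0.18, and 2 rose. XTH20 was no longer called without dark replicate 1, far-red replicate 2 or far-red replicate 3 (adjusted p = 0.0621 to 0.19). EXPB3 had 260.5, 234.7 and 254.1 in far-red, against 71, 92.7 and 43 in dark.

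GH9B13, a family 9 glycosyl hydrolase and one of the 15 largest falls, had 62.9, 57.4 and 43.7 in far-red, against 535.6, 487.6 and 444.6 in dark (-3.15 ± 0.13). CSLC04, which makes the glucan backbone of xyloglucan and was named after its values were seen, fell by 1.42 ± 0.14. Of 5 beta-tubulins TUB1, TUB6 and TUB5 fell, by 0.71 to 0.87, beside 15.4% of all probe sets. This family was also chosen after its values were seen. TUB7 and TUB9 were at -0.18 and -0.25 and did not pass (adjusted p = 0.111 and 0.0504), and TUB9 was called in the fit on the 6 arrays alone (adjusted p = 0.0379). Of the 3 tested genes on the gibberellin and brassinosteroid list 1 rose and none fell, against 13.6% and 15.4% of all probe sets. The receptor GID1B rose by 0.77 ± 0.22, its relative GID1A did not pass (-0.13, adjusted p = 0.59), and EXO, a growth gene induced by brassinosteroid, lay at -0.64 ± 0.27 (adjusted p = 0.0692). GID1B was at 0.60 without dark replicate 1 (adjusted p = 0.0606), and EXO was called in the fit on the 6 arrays alone (adjusted p = 0.00549).

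Both tested genes of the 18 on the seed oil list fell, beside 15.4% of all probe sets. ICL, isocitrate lyase of the glyoxylate cycle, had 559.9, 782.7 and 617.3 in far-red, against 1219, 1422.9 and 1089.5 in dark (-0.93 ± 0.24, adjusted p = 0.00238). The oil body lipase SDP1 fell by 0.40 ± 0.10. OLEO3, an oleosin of the oil body surface, had 73.7, 73.5 and 73.9 in far-red, against 378.4, 379.3 and 424 in dark, and fell by 2.40 ± 0.18. It was chosen as one of the 15 largest falls, for which absence of overlap between the groups was a condition.

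All 5 tested genes on the list of branched-chain amino acid breakdown and linked steps fell, beside 15.4% of all probe sets. MCCA and MCCB, the subunits of methylcrotonyl-CoA carboxylase in leucine breakdown, fell by 1.27 ± 0.13 and 1.16 ± 0.08. MCCB had 426.7, 403.7 and 442.2 in far-red, against 1015, 942.6 and 887.3 in dark. IVD, isovaleryl-CoA dehydrogenase, and ETFQO, which passes its electrons to the respiratory chain, fell by 0.80 ± 0.09 and 0.67 ± 0.16. AT4G33150, the lysine-degrading LKR/SDH, fell by 1.09 ± 0.20. ALDH6B2, of valine breakdown and named after its values were seen, fell by 0.98 ± 0.11. GAT1_2.1, a glutamine amidotransferase and one of the 15 largest falls, fell by 2.41 ± 0.21.

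The autophagy genes tested were of the ATG8 type, whose products coat the autophagosome membrane. All 9 tested members lay below 0, between -0.39 and -0.05, but only ATG8F and ATG8G were called, a share near the 15.4% of all probe sets called lower, and ATG8G was lost when dark replicate 2, far-red replicate 1 or far-red replicate 2 was left out (adjusted p = 0.0578 to 0.079). Among genes of the respiratory chain, chosen after their values were seen, the succinate dehydrogenase subunits SDH2-1 and SDH1-1 rose by 1.33 ± 0.11 and 0.96 ± 0.13, and cytochrome c (CYTC-2) by 1.39 ± 0.19. SDH2-2 did not pass (0.12, adjusted p = 0.422).

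The stress list gave few calls. Of 11 tested heat shock and oxidative stress genes 2 rose and none fell, against 13.6% and 15.4% of all probe sets. These were AT5G51440 and AT2G20560, at 1.45 ± 0.46 and 1.19 ± 0.24, both with low signals. AT5G51440 was 0.90 with a pseudocount of 16 and lost its call without far-red replicate 2 or dark replicate 3 (adjusted p = 0.0802 and 0.0831). WRKY53, WRKY6 and STZ, which respond to many stresses, were at 0.02, 0.38 and 0.10 and did not pass. On the remaining lists 1 gene each was tested: LYC, lycopene cyclase of carotenoid synthesis, rose by 0.41 ± 0.08, and SIR, sulfite reductase, did not pass (-0.18, adjusted p = 0.395). Of 5 WRKY factors WRKY22 fell, by 0.80 ± 0.17, and MYBC1, the 1 MYB factor tested, fell by 0.55 ± 0.13. GR1, glutathione reductase of the cytosol and named after its values were seen, rose by 1.70 ± 0.12.

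Ranked with a pseudocount of 16, which keeps signals near the floor from leading, the largest rises among the named genes were those of THI2.2, MSRB6 and AT3G57020. THI2.2, a thionin, one of the small antimicrobial peptides, had 909.1, 992.3 and 886.5 in far-red, against 10.7, 5.3 and 4.2 in dark. The difference of 7.00 ± 0.62 (adjusted p = 5.83e-12) starts from the floor and was 5.39 with a pseudocount of 16. MSRB6, a methionine sulfoxide reductase, had 1265.3, 1334.6 and 1277.1 in far-red, against 41.4, 24.8 and 30.4 in dark (5.31 ± 0.21, adjusted p = 5.43e-22), or 39.8-fold. AT3G57020 had 1124.6, 1207.1 and 1116.7 in far-red, against 37.5, 47.8 and 36.8 in dark. Of the remaining 12 of the 15 largest rises, CHIL, UGT78D2, HYH and XTH32 are described above, and 8 are loci given only by number, which rose by 3.27 (AT5G35970) to 5.12 (AT1G60590, 2.96 with a pseudocount of 16).

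Among the 15 largest falls, ranked in the same way, AT2G19660 stood first, with 24.4, 3.8 and 21.3 in far-red, against 253.6, 292.6 and 334.7 in dark (-4.39 ± 0.28). XTH19, GH3.3, GH9B13, EXPA9, OLEO3 and GAT1_2.1 also belong to them, and the other 8 loci have only a number. Those 8 fell by 2.25 (AT4G30170) to 3.39 (AT5G24580).

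In several families close relatives moved apart. These families were chosen after their values were seen. MSRB5 rose with MSRB6, by 1.03 ± 0.14, but MSRB9 had 424.7, 503.1 and 448.9 in far-red, against 1297.6, 1615.6 and 1455.5 in dark, and fell by 1.66 ± 0.16. LIL3:1 and LIL3:2, light-harvesting-like proteins that hold enzymes of chlorophyll and tocopherol synthesis at the membrane, were at 1.22 ± 0.39 and -1.67 ± 0.38. LIL3:1 was no longer called without far-red replicate 2 or dark replicate 3 (adjusted p = 0.0622 and 0.0603). LIL3:2 had 158.8, 167.4 and 201.5 in far-red, against 594.8, 602.7 and 489.1 in dark.

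Family 9 glycosyl hydrolases were split too, with GH9B8, GH9B18 and GH9B7 higher and GH9B13 and GH9C3 lower among 12 tested, against 13.6% and 15.4% of all probe sets. GH9B8 averaged 433.3 ± 82.6 in far-red and 136.2 ± 20.4 in dark (SD, n = 3 each). GH9B7 was lost without dark replicate 1 (adjusted p = 0.159), and GH9C3, near the floor, was at -0.71 against -1.41 with a pseudocount of 16. Of 12 SWEET sugar transporters SWEET17, SWEET2 and SWEET1 rose and SWEET16 fell, against 13.6% and 15.4% of all probe sets. SWEET17, a fructose carrier of the vacuole, had 968.3, 780.1 and 907.8 in far-red, against 336.3, 379.2 and 213.3 in dark. The fall of SWEET16, a vacuolar carrier of the same subgroup, was small (-0.40 ± 0.13) and was lost without far-red replicate 2 or dark replicate 2 (adjusted p = 0.0862 and 0.0785).

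Of 11 tested transporters of the nitrate and peptide (NPF) family, chosen after its values were seen, 5 rose and none fell, against 13.6% and 15.4% of all probe sets. AT3G21670 (NPF6.4) had 544.7, 501.4 and 524.3 in far-red, against 78.4, 71.4 and 75 in dark, and GTR1, a glucosinolate transporter, rose by 1.56 ± 0.16 while GTR2 was at 0.16 (adjusted p = 0.542). Of 8 aldehyde dehydrogenases, chosen likewise, 4 fell and ALDH3F1 rose, by 1.02 ± 0.10, against 15.4% lower and 13.6% higher of all probe sets.

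Far-red light was next compared with red light of the same duration and fluence rate, which acts through phytochrome B as well as phytochrome A. Far-red and red differed at 1156 probe sets (7.33% of the tested), 589 higher in far-red (3.73%) and 567 lower (3.59%). This comparison shares the far-red arrays with the one against dark, so the values of both are given side by side without a count of shared calls. The named signalling and clock genes differed in both directions or were not called. HYH averaged 158.8 ± 14.8 in far-red, against 29.3 ± 2.72 in red and 5.63 ± 4.31 in dark (SD, n = 3 each), and was 2.40 ± 0.38 above red. AFR, GI, AT3G44450 and AT3G52740 exceeded red by 1.57, 0.89, 2.46 and 4.33. The median of AT3G44450 and AT3G52740, 3.4, was 2.02 with a pseudocount of 16. HAT2 was lower by -1.11, and FHL, COR27 and AT4G33980 did not pass, at -0.39, -0.77 and -0.56.

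In the flavonoid list 4 of 5 members were higher in far-red than in red, beside 3.73% of all probe sets. UGT78D2 had 385.7, 487.2 and 511.2 in far-red, against 63.3, 91.6 and 75.9 in red (2.57 ± 0.15, adjusted p = 2.55e-16). CHIL had 255.3, 298.5 and 195.6 in far-red, against 34.4, 9.7 and 34.5 in red, so that the groups did not overlap. The exception was DFR (0.56, adjusted p = 0.111), and UGT84A1 was called on signals near the floor. MSRB6 and AT3G57020 exceeded red by 2.34 ± 0.21 and 3.07 ± 0.23. THI2.2, in contrast, averaged 929.3 ± 55.7 in far-red and 565.5 ± 96.8 in red (SD, n = 3 each), and its difference of 0.73 had a 95% interval of -0.53 to 1.98 (adjusted p = 0.63, and 0.00326 in a fit on these groups alone).

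In the cell wall list 7 of 13 members were lower in far-red than in red and none higher, against 3.59% and 3.73% of all probe sets. EXPA8 had 336.2, 332.6 and 270.6 in far-red, against 1020.6, 954.9 and 931.1 in red (-1.63 ± 0.12, adjusted p = 3.75e-13), red being closer to dark than to far-red. XTH19, XTH33 and EXPB1 were lower by -1.40, -1.09 and -1.20. EXPA9, in contrast, had means of 92.5 in far-red, 83.7 in red and 622.4 in dark, and its difference between far-red and red of 0.14 had a 95% interval of -0.18 to 0.46.

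Of the auxin genes 2 of 4 were lower in far-red than in red, beside 3.59% of all probe sets. GH3.3 averaged 35.4 ± 5.94 in far-red and 131.6 ± 36.3 in red (SD, n = 3 each), and was lower by -1.84 ± 0.23 (adjusted p = 1.51e-07). WES1 was lower by -1.10, and IAA29 and IAA20 were at -0.15 (95% interval -0.50 to 0.21) and 0.06 (-0.79 to 0.91). MSRB9 was lower by -1.49. PORB had 412.9, 317.8 and 304.8 in far-red, against 825, 979.2 and 599.9 in red (-1.20, adjusted p = 0.00827), and was lost without red replicate 2 (adjusted p = 0.0685).

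None of the 5 genes of the photosystem and electron transport list was called between far-red and red (7.33% of all probe sets were). Their differences lay between -0.20 and 0.17. PSBW averaged 1213 ± 70.4 in far-red and 1325 ± 108 in red (SD, n = 3 each), a difference of -0.13 with a 95% interval of -0.56 to 0.30. For PSAE-1 the interval was wider, -0.94 to 0.54. RCA was at 0.21 (95% interval -0.28 to 0.69), and in the antenna LHCB4.3 was higher in far-red (0.76 ± 0.13, adjusted p = 4.4e-05). In the chlorophyll list PORB was the only gene called of 8.

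**Figure D4:**
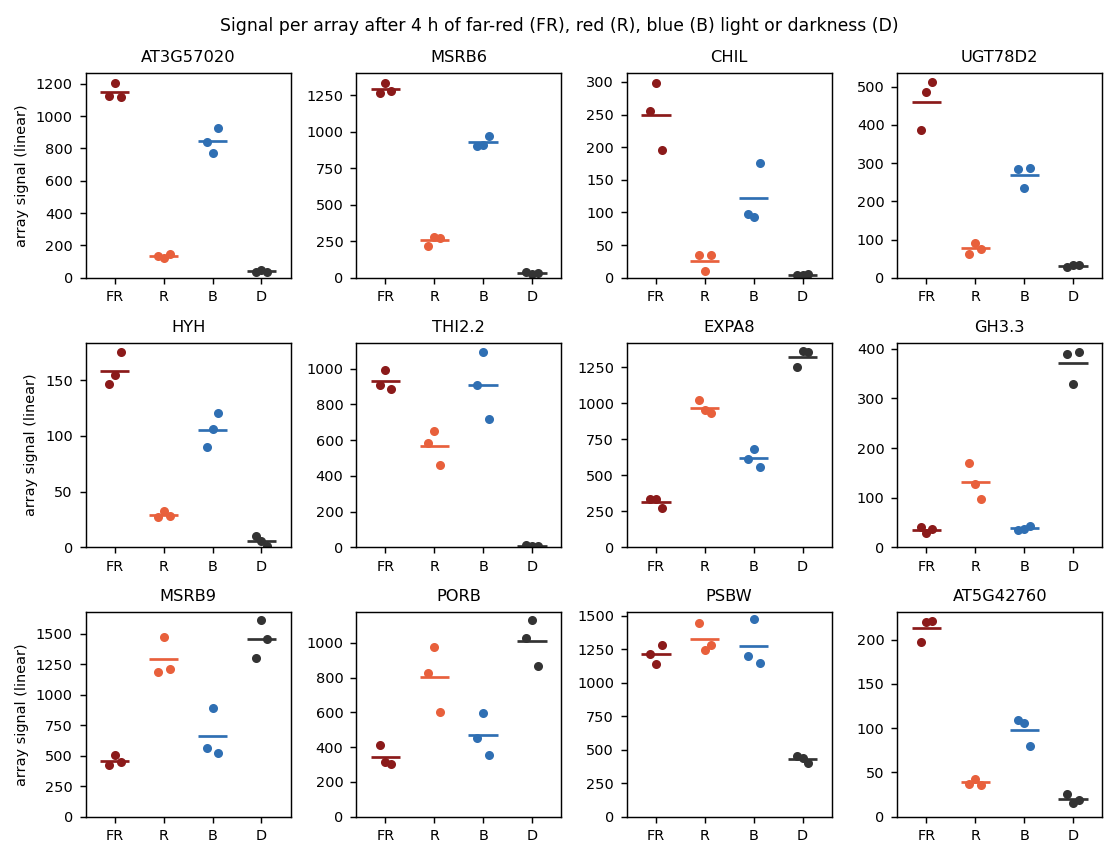
Array signal on a linear scale (vertical axes) of 12 genes after 4 h in far-red (FR), red (R), blue (B) or darkness (D), with a point for each array and a line at the mean of 3. AT3G57020, MSRB6, CHIL, UGT78D2 and HYH are higher in far-red than in red, and EXPA8, GH3.3, MSRB9 and PORB are lower in far-red than in red. PSBW is at 1213 in far-red, 1325 in red, 1274 in blue and 430.4 in dark.

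Blue light of 4 h, which acts through cryptochromes and phytochrome A, was compared in the same way. Between far-red and blue 36 probe sets were called (0.228% of the tested), 16 higher in far-red (0.101%) and 20 lower (0.127%). The replicate numbers of these groups deviate together, and with the replicate number as a block 78 were called, 39 in each direction. The count depended on single arrays: it was 10 without blue replicate 2, 13 without far-red replicate 3 and 18 without far-red replicate 2. With a pseudocount of 32, 60 were called.

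Of the genes called both here and against dark, the rule names 8 that were lower in far-red than in blue and 4 that were higher. Of these 12, 9 lost their call when some array was left out and 8 in another setting, 8 of them in the fit on these groups alone, and EXPA8 was the gene called in every setting run. EXPA8 had 336.2, 332.6 and 270.6 in far-red, against 615.5, 685.3 and 557.8 in blue (-0.98 ± 0.12, adjusted p = 5.65e-06), all far-red arrays being lower. BZIP61 averaged 43.5 ± 3.70 in far-red and 74.4 ± 5.90 in blue (SD, n = 3 each). UGT78D2 averaged 461.4 ± 66.6 in far-red and 268.9 ± 28.7 in blue (0.77 ± 0.15, adjusted p = 0.00571). AT5G42760 had 197.2, 219.7 and 220.5 in far-red, against 108.7, 105.3 and 79.5 in blue (1.12 ± 0.21, adjusted p = 0.00571). AT2G19660 was -1.70 below blue and -0.96 with a pseudocount of 16, and -0.93 without far-red replicate 2, its lowest array, and was not called in a fit on these groups alone (adjusted p = 0.395). The remaining 7, AT1G80280, AT3G42800, AT3G07010, AT3G05150 and AT5G45670 among the lower and AT3G24190 and AT3G17800 among the higher, differed by 0.49 to 0.76 in size.

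Several genes that differed between far-red and red were not called between far-red and blue. MSRB6 had 904.4, 905.6 and 971.2 in blue, below each far-red array, but its difference of 0.48 did not pass (adjusted p = 0.827). HYH differed from blue by 0.59 (95% interval -0.18 to 1.36), GH3.3 by -0.13 (-0.60 to 0.34) and XTH19 by -0.23 (-0.51 to 0.05).

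At 45 min fewer probe sets were called. Against dark of the same harvest, 329 probe sets were called (2.09% of the tested), 253 higher (1.60%) and 76 lower (0.482%). The 45 min and 4 h comparisons share no array. Of the 253, 200 (79.1%) were also called higher at 4 h, where 13.6% of all probe sets were, and 11 were called lower. These 200 are 9.3% of the 4 h rises. Of the 76 lower, 56 (73.7%) were called lower at 4 h, where 15.4% of all were, and they are 2.3% of the 4 h falls. A fit on the arrays of these groups alone called 179 at 45 min. Of the flavonoid and auxin lists 1 gene each was called at 45 min. None was called of the 5 photosystem and electron transport, 13 cell wall and 5 amino acid breakdown genes.

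HYH was among the genes called at 45 min. It had 23.2, 25.1 and 16.8 in far-red at 45 min, against 3.3, 1.4 and 1.1 in dark (3.01 ± 0.38, adjusted p = 3.51e-07), no far-red array being near a dark one. AFR, GI and UGT78D2 were already higher by 2.22, 1.24 and 1.81. IAA29 was lower by -1.78 ± 0.18 at 45 min, beside -1.54 at 4 h, and the difference between these effects did not pass (0.23, adjusted p = 0.635). HAT2 was lower by -0.57 (adjusted p = 0.019).

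The difference between the 4 h effect and the 45 min effect was tested as an interaction and called for 2367 probe sets (15.0% of the tested), 1123 higher at 4 h (7.12%) and 1244 lower (7.88%). All 5 tested genes of the photosystem and electron transport list were among those higher at 4 h. Of the 5 tested genes with symbols starting with PSA or PSB, 4 were higher and 1 was not called. PSAE-1 averaged 139.0 ± 54.2 in far-red and 146.1 ± 22.7 in dark at 45 min (SD, n = 3 each), so that its effect grew by 2.58 (adjusted p = 0.000318). In the cell wall list 9 of 13 effects were lower at 4 h, and XTH19, at 818.8, 769.9 and 901.3 in far-red, against 933.5, 824 and 852.3 in dark at 45 min, had overlapping groups then. Its effect fell by 3.09 ± 0.20 between the harvests.

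For 5 named genes the calls at 45 min and 4 h were in opposite directions. AT1G69570 had 490.1, 454.9 and 470.4 in far-red at 45 min, against 208.4, 217.3 and 185.8 in dark, and 191.5, 197.7 and 162.8 in far-red at 4 h, against 304.1, 315.9 and 302.8 in dark. It was thus higher by 1.21 at the early harvest and lower by -0.74 at the late one, with no overlap at either. BIM1, a basic helix-loop-helix partner of the brassinosteroid factor BES1, was at 0.58 and then -0.40, and AT3G11580 and AT1G10740 were likewise higher and then lower, while AT5G01790 was at -0.76 and then 0.77. The late falls were small: that of AT1G10740 was lost without far-red replicate 2 (adjusted p = 0.0518), that of AT3G11580 without far-red replicate 2, dark replicate 2 or dark replicate 3 (adjusted p = 0.0509 to 0.255), and that of BIM1 without any of 4 arrays (adjusted p = 0.0851 to 0.0936). The early rise of BIM1 did not pass with dark replicate 3 of that harvest removed (adjusted p = 0.268) or with its far-red replicate 2 removed (adjusted p = 0.0916). AT5G58750 was called at 45 min and not at 4 h (adjusted p = 0.727): it had 40.7, 79.8 and 47.8 in far-red at 45 min, against 1.4, 3.6 and 2.9 in dark, and 2.8, 3.3 and 3.5 in far-red at 4 h, against 2.6, 8.6 and 2.4 in dark. These 6 genes were chosen after their values were seen.

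**Figure D5:**
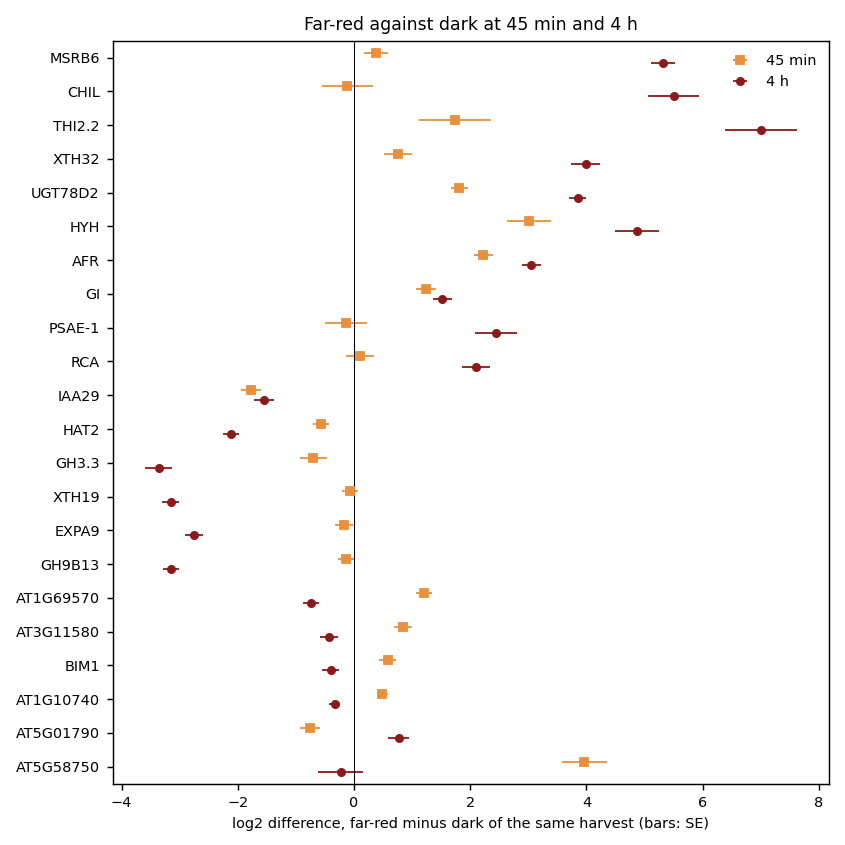
Log2 difference, far-red minus dark of the same harvest (horizontal axis), at 45 min (squares) and at 4 h (circles) for 22 genes, with bars for the SE of the fit. HYH, AFR, GI and IAA29 are displaced at both harvests, MSRB6, CHIL, XTH19 and EXPA9 at 4 h but near 0 at 45 min, and AT1G69570, AT3G11580, BIM1, AT1G10740 and AT5G01790 change sign.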

How the data were processed

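Total RNA of seedlings, with the tissue labelled as mainly hypocotyl and cotyledons, was measured on Affymetrix ATH1 arrays. The authors deposited linear intensity values, 1 for each probe set and array. The submitters' processing notes name MAS5, with no version in the sources used here. The trimmed mean of each array, leaving out 2% at each end, lies near 100 in the values, as a scaling to a common level gives, and such scaling assumes like total expression. No detection calls were used here, and signals near the floor are uncertain. Precision is limited by having 3 arrays in a group.

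Samples were grouped by their labels. All 48 arrays in 16 groups of 3 entered the fit. A probe set was tested if, in 3 or more arrays, its signal exceeded the array's 40th percentile, which held for 15777 of 22746 after removal of 64 controls. Values were taken as log2(signal + 1), which understates changes of low genes, and fitted with limma 3.58.1 in R 4.3.3 (group means, eBayes with an intensity trend, 32 residual degrees of freedom, mean prior 6.15), with Benjamini-Hochberg adjustment within each of 5 contrasts. Intervals are 95% intervals of the fit. Tables and figures were made with pandas 2.3.3 and matplotlib 3.10.9 in Python 3.11.15. The fit was tested on simulated data.

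Genes were named through an annotation table of the platform and a RefSeq gene table (TAIR10.1), matched by gene identifier. Of the probe sets, 13513 have 1 gene (13436 matched), 503 several and 8730 are not listed here. Of 385 members of 19 pathway lists 82 were tested, and 1 list and 3 of 6 marker lists had none. A gene with several probe sets is given by the one with the highest mean. Named genes include the 15 largest rises and falls among called genes without overlap, ranked with a pseudocount of 16. Of each list, the 4 called members with the largest change (all members of lists of up to 5) were planned. The 364 named genes hold all tested members of the lists and families. They also hold the 8 called genes with the largest difference in each direction against red, against blue and in the interaction, ranked in the same way. Further families and genes are marked as chosen after their values were seen. The members and lists were chosen with earlier results of these data known. Promoter sequences were not used here, so that planned counts of promoter motifs were not made.

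The replicate numbers were checked as pairs by the correlation of deviations from group means. Same numbers correlated at 0.0681 to 0.1092 for far-red and dark, 0.0601 to 0.1027 for far-red and red, 0.0428 to 0.3297 for far-red and dark at 45 min, and 0.1523 to 0.2043 for far-red and blue, where alone every pair was over 0.1. Alternatives were pseudocounts of 16 and 32, no filter, a filter at the 60th percentile, quantile normalization, median centring, no trend, a replicate block, a fit on the compared groups alone and leaving out each array.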

Additional observations from a re-analysis of the deposited data

Results flagged for a closer look

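The effect of far-red light against dark differed between 4 h and 45 min for 2367 probe sets by the interaction test in limma, which is why these results are listed. As the 4 h effect minus the 45 min effect on the log2 scale, the 8 named genes of the higher direction, ranked with a pseudocount of 16 among genes called here and against dark at 4 h, were AT1G60590 at 6.01, CHIL at 5.62, THI2.2 at 5.27, MSRB6 at 4.94, AT3G57020 at 4.17, XTH32 at 3.23, AT1G73650 at 3.15 and AT1G48100 at 2.93. The 8 named by the same rule in the lower direction were AT2G19660 at -3.84, AT5G24580 at -3.32, XTH19 at -3.09, AT5G02540 at -3.03, GH9B13 at -3.01, AT3G24450 at -2.99, GH3.3 at -2.66 and EXPA9 at -2.58. Genes called in opposite directions at the harvests gave -1.95 for AT1G69570, -1.28 for AT3G11580, -0.98 for BIM1, -0.82 for AT1G10740 and 1.53 for AT5G01790. With a pseudocount of 16 the value of AT1G60590 was 3.19. The title of far-red 45 min replicate 2 carries the number 1 in a prefix and 2 at its end, of which 2 was taken.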

How the results depend on the processing

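The count for far-red against dark stayed within 1.5 times in all settings run, at 3825 to 4004 when an array was left out (1842 to 1937 higher, 1983 to 2122 lower), and so did that of the interaction (2002 to 2257). A replicate block gave 5280 calls against dark and 3088 for the interaction. At 4 h every far-red array correlated best with the dark array of its own number, which is a hint from the data and not from the design. This did not hold at 45 min, where far-red replicate 1 correlated at 0.0428 with dark replicate 1 and at 0.1716 with dark replicate 3. Against red, 862 to 984 were called without an array (455 to 503 higher, 407 to 497 lower), and 857 instead of 567 were lower with the replicate block. Against blue, leaving out an array gave 10 to 30 calls (2 to 12 higher, 8 to 19 lower), the replicate block 78 (39 higher, 39 lower), pseudocounts of 16 and 32 gave 35 and 46 higher, 60 in all with 32, and the fit on these groups alone 29 higher and 3 lower. At 45 min, where all settings were chosen after seeing the data, 251 to 302 were called without an array (198 to 245 higher, 51 to 59 lower), and there were 179 calls (140 higher, 39 lower) in the fit on these groups alone and 122 lower with the block. No call of the 364 named genes reversed in any setting. Of the 182 called against dark, 25 were lost when some array was left out and 8 in another setting, and 20 moved by over 1.5 times with a pseudocount of 16 and 40 with 32. The causes were not tested.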

Other observations

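Among genes outside the lists, TPS-CIN, which makes the monoterpene 1,8-cineole and was picked for its change, had 257.2, 228.3 and 248 in far-red, against 30.5, 31.7 and 30.9 in dark, and rose by 2.94 ± 0.35 (limma, adjusted p = 7.5e-09). The groups did not overlap. In the expansin family EXPA15 was at 0.39 ± 0.15 and was lost when single arrays were left out, and EXPA16, EXPA20, EXPB2 and EXPB5 did not pass, at -0.41, -0.37, -0.16 and 0.27. Of the NPF transporters, AT1G59740 (NPF4.3) rose by 1.16 ± 0.15. The factor bZIP44 fell by 1.55 ± 0.14 and bZIP19 rose by 0.39 ± 0.10.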
